A study of Mus musculus with 12 samples.

Results

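The genes described here are those of the replication licensing helicase, Mcm2 to Mcm7, and of the G1 cyclins Ccne1, Ccne2, Ccnd1 and Ccnd2. They are 10 genes of a transcript set that holds 40039 merged loci, 23991 of which had enough counts to be tested. The members, and the gene lists used below, were chosen by name and function with earlier results of these data known. Counts of them called, set beside shares of all loci, are therefore descriptions. All 10 members were found by comparing exon and intron lengths with annotated genes, with no conversion of coordinates between genome builds. A locus of their own with counts was held by 7 of them, and the loci of 2 (Mcm6 and Mcm7) also contain a second gene. The counts of 1 (Ccnd1) were listed at 0 in every library, so that its deposited FPKM values were used.

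RNA was measured in mouse embryonic stem cells of strain C57BL/6J, the pluripotent cells of the early embryo kept in culture, which were either wild type or Notch1-/-, with both copies of Notch1 inactivated. Notch1 is a receptor that cells use to read signals from their neighbours. Both genotypes were sampled undifferentiated at day 0, when they grew on gelatin or on feeder fibroblasts of mouse embryos with 1000 U/ml of LIF, a factor that holds them in the undifferentiated state. They were sampled again at day 6 of cardiac differentiation as embryoid bodies, aggregates of cells started in hanging drops of 1000 cells. Each of the 4 groups had 3 libraries of poly(A) RNA. The labels do not say which libraries came from feeders, whether a genotype is 1 clone, or whether the replicates are separate cultures, so p-values measure the spread between these libraries, which may be technical.

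Before a cell copies its DNA, the Mcm proteins are loaded as a ring-shaped hexamer onto replication origins in G1, a step called licensing, and in S phase the same ring becomes the moving helicase of the replication fork. D-type cyclins with their kinases Cdk4 and Cdk6 start the phosphorylation of the retinoblastoma protein, and E-type cyclins with Cdk2 complete it and fire the entry into S phase. This releases E2F factors, whose known targets include the Mcm genes and Ccne1. Mouse embryonic stem cells are known for a short G1 with high cyclin E and low cyclin D, which lengthens as they differentiate.

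Library totals ran from 100637179 to 134662426 counts. Notch1 itself stood at 61.6, 24.7 and 34.0 CPM (normalised read counts, scaled to library size by TMM) in wild-type and at 3.80, 3.87 and 4.59 CPM in Notch1-/- cells at day 0. At day 6 it stood at 38.0, 30.8 and 31.1 CPM against 6.80, 4.90 and 4.95 CPM, so every library matched its label. Libraries of day 0 differed in fibroblast RNA: the summed level of 17 of 20 listed fibroblast markers ran from 982 to 3324 CPM in wild-type and from 533 to 2013 CPM in Notch1-/- cells. At day 6 it ran from 1329 to 1789 CPM and from 161 to 170 CPM, and Fap was then under 0.1 CPM in both genotypes. The wild-type sum at day 6 lay mostly in genes that mesenchymal cells share, such as Col1a1 (735 ± 218 CPM, mean ± SD, n = 3). Of the 17 markers 10 were called lower over wild-type differentiation by edgeR and 2 higher (median log2 change −1.92), beside 24.7% and 18.4% of all loci. Lox was among the former, from 217 ± 20.7 to 1.32 ± 0.567 CPM. The estimated change was positive for 5 of the 17, Postn among them, from 50.2 ± 26.0 to 137 ± 26.4 CPM. Of the same markers 16 were called lower and 0 higher in Notch1-/- cells (−4.09), beside 18.7% and 17.2% of all loci. Between the genotypes at day 6, 9 were lower and 2 higher in Notch1-/- libraries (−1.70), beside 14.4% and 13.7% of all loci. Undifferentiated stem cell markers (6 of 10 listed genes, none at 0) summed to 3451 to 4321 CPM and 3238 to 4957 CPM at day 0 and to 769 to 959 CPM and 1178 to 1701 CPM at day 6. Visceral endoderm markers (5 of 5) summed to 174 to 246 CPM in wild-type but to 8.15 to 15.6 CPM in Notch1-/- embryoid bodies. Mesoderm and cardiac progenitor markers (5 of 8) summed to 498 to 807 CPM against 107 to 364 CPM there, and endothelial and blood markers (5 of 5) to 161 to 226 CPM against 38.7 to 53.3 CPM. In such bulk RNA, fewer cells of a type and less RNA per cell cannot be told apart, and the part of cell makeup in the results below was not tested.

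Promoter sequence is shown for the members because E2F factors are known regulators of licensing genes. RefSeq (GRCm38.p6) windows from 250 bases before to 50 bases after a start were at hand for 6 of the 10 members, in 7 windows: Mcm2, Mcm3, Mcm5, Mcm6, Mcm7 (2 starts) and Ccne1. E2F letters (TTTCCCGC, TTTCGCGC, TTTGCCGC or TTTGGCGC on either strand, overlaps counted) were found in 4 of the 7 windows, those of Mcm3, Mcm5, Mcm6 and the first start of Mcm7, against 2.26% of 32851 RefSeq windows. The CCAAT box letters (CCAAT) were in 6 member windows and in 37.4% of all, the GC box letters (GGGCGG) in 6 and in 35.7%, and the letters TGGGAA, which the Notch partner CSL is known to bind, in 3 and in 25.6%. A match is a description of the letters in a window and was not tested as a site. Of the members called lower over wild-type differentiation below, Mcm3 and Mcm5 have E2F letters, Mcm2 and Ccne1 have none, and Mcm4 has no window. The Mcm6 and Mcm7 loci, with such letters, were not called there. The part of these letters in the values was not tested. For the Mcm5 and Mcm6 windows the bases just after the start were not found in annotated transcripts of the gene, so those starts are less certain.

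The stretches with E2F letters are printed 5′ to 3′ in the direction of the gene, with those letters in capitals. For Mcm5 (chr8:75109309-75109508, plus strand), Mcm6 (chr1:128359706-128359905, minus) and Mcm7 (chr5:138171884-138172083, minus) they are the 200 bases before the start, and for Mcm3 (chr1:20820265-20820294, minus) and again Mcm7 (chr5:138171839-138171868, minus) 30 bases after it, where further matches lie.
Mcm3, after the start: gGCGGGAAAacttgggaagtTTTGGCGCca
Mcm5, before the start: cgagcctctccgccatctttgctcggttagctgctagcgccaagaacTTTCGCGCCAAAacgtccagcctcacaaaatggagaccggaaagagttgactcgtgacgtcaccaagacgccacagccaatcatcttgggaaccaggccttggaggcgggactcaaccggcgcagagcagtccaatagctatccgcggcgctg
Mcm6, before the start: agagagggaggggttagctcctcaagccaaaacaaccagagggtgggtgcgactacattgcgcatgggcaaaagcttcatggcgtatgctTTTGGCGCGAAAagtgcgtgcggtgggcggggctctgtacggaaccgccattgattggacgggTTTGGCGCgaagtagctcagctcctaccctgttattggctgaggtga
Mcm7, before the start: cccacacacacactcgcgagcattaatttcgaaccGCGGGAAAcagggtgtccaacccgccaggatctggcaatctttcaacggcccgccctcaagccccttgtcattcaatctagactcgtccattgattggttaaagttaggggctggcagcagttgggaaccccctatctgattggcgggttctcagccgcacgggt
Mcm7, after the start: gTTTCGCGCcaatttcggttggccggctac

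Mcm5 and Mcm6 each hold a pair of overlapping matches on opposite strands, and Mcm6 holds 3 matches in all. The 200 bases before the starts of Mcm2 (chr6:88898781-88898980, minus) and Ccne1 (chr7:38107491-38107690, minus) are shown for contrast, with the GC box letters in capitals. Neither window held the E2F letters searched, and the Ccne1 window held 4 GC boxes, 3 of them in the printed stretch on the printed strand, and no CCAAT box.
Mcm2, before the start: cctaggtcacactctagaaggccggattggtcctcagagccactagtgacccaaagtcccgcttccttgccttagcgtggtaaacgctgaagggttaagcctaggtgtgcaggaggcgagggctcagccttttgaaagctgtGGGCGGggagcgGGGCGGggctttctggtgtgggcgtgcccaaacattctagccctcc
Ccne1, before the start: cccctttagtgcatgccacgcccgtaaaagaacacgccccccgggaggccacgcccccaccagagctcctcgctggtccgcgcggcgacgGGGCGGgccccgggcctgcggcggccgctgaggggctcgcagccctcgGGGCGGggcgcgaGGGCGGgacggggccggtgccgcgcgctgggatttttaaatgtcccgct

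**Figure D1:**
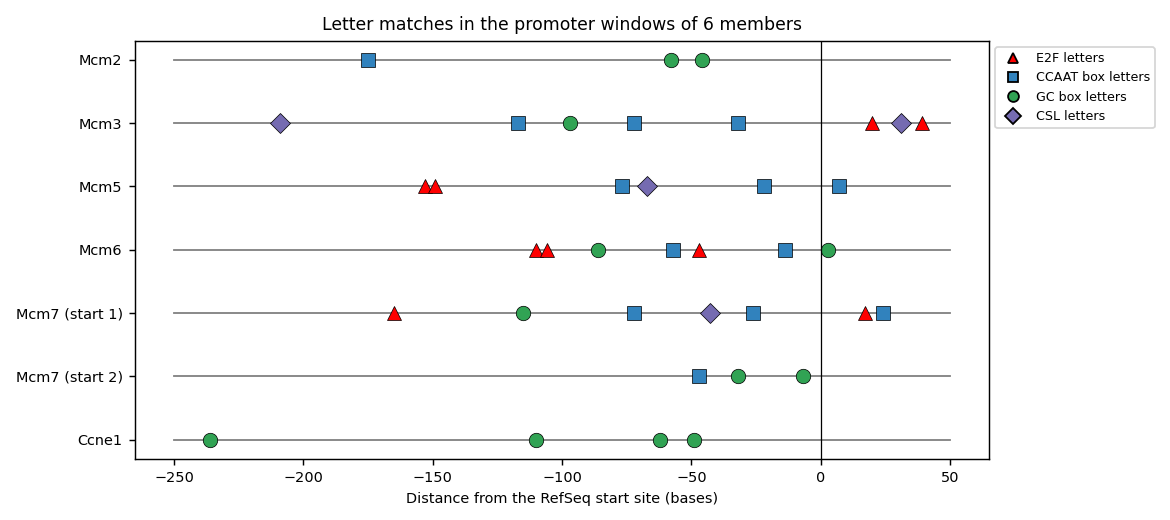
Letter matches along the RefSeq promoter windows of 6 members, with distance from the start site in bases on the x axis and 1 line per window; each symbol marks a match. E2F letters appear on the Mcm3, Mcm5, Mcm6 and first Mcm7 lines, and the Ccne1 line carries 4 GC boxes alone.

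Over 6 days of differentiation Mcm2, Mcm3, Mcm4, Mcm5 and Ccne1 fell in wild-type cells, while no member with counts passed the same test in Notch1-/- cells. Of the 9 members with counts, 5 were called lower (Mcm2, Mcm3, Mcm4, Mcm5 and Ccne1) and 1 higher (Ccne2) at day 6 in wild-type cells by edgeR's quasi-likelihood test, where a call is a Benjamini-Hochberg adjusted p under 0.05 over all loci tested. By the same rule 24.7% of all loci were lower and 18.4% higher in that comparison. In Notch1-/- cells 0 of the 9 were called in either direction by edgeR, 0 at an unadjusted p under 0.05 and 0 by DESeq2, with 1 (Mcm4, higher) called by limma on FPKM, while 17.2% of all loci were higher and 18.7% lower (limma 21.1% higher). Between the genotypes at day 0, 0 members were called by edgeR, at an unadjusted p under 0.05 and by DESeq2, against 3.71% of loci higher and 5.86% lower in Notch1-/- cells. These day 0 shares are unstable: the 889 loci higher ran from 550 to 2548 and the 1405 lower from 558 to 3435 when 1 library was left out (lowest higher count without replicate 1 of wild-type day 0, lowest lower count without replicate 2 of Notch1-/- day 0, both highest without replicate 2 of wild-type day 0). DESeq2 gave 1591 and 2124, and a replicate block 1365 higher, with 0 members called. At day 6, 5 members (the same Mcm2, Mcm3, Mcm4, Mcm5 and Ccne1) were higher and 0 lower in Notch1-/- embryoid bodies, against 13.7% of loci higher and 14.4% lower. The 3283 loci higher fell to as few as 1912, without replicate 1 of wild-type day 6, and also by over 1.5 times without replicate 2 of that group. Ccne2 was lower there at an unadjusted p under 0.05 and by DESeq2. Those 5 are abundant genes, and among loci with a mean of at least 100 CPM the share called higher was 19.0%. Among such loci 19.5% were called lower over wild-type differentiation. Groups can also be read by whether their libraries overlap. Over wild-type differentiation 6 members had every day 6 library lower (those 5 and the Mcm6 locus, against 28.7% of loci) and 2 every one higher (Ccne2 and the Mcm7 locus, against 25.1%). In Notch1-/- cells 1 was lower throughout (Mcm5, against 24.4% of loci) and 1 higher (Ccne2, against 24.9%). At day 0 the genotypes overlapped for all 9, against 8.65% of loci higher and 11.9% lower without overlap. By FPKM, Mcm4 was lower in every Notch1-/- library at day 0 (66.6, 72.0 and 71.8 FPKM against 78.8, 78.1 and 83.2), with limma log2 differences of −0.19 for Mcm4 and −0.25 for Mcm2 (unadjusted p = 0.0439 and 0.0388, adjusted p = 0.175 and 0.164). The CPM of the 2 day 6 groups did not overlap, Notch1-/- higher, for 6 members (those 5 and the Mcm6 locus), against 29.8% of all loci, and lower for 3 (the Mcm7 locus, Ccne2 and Ccnd2), against 29.4%. The counts for the genotype comparisons and for the time courses share libraries, so they are not independent of each other.

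**Figure D2:**
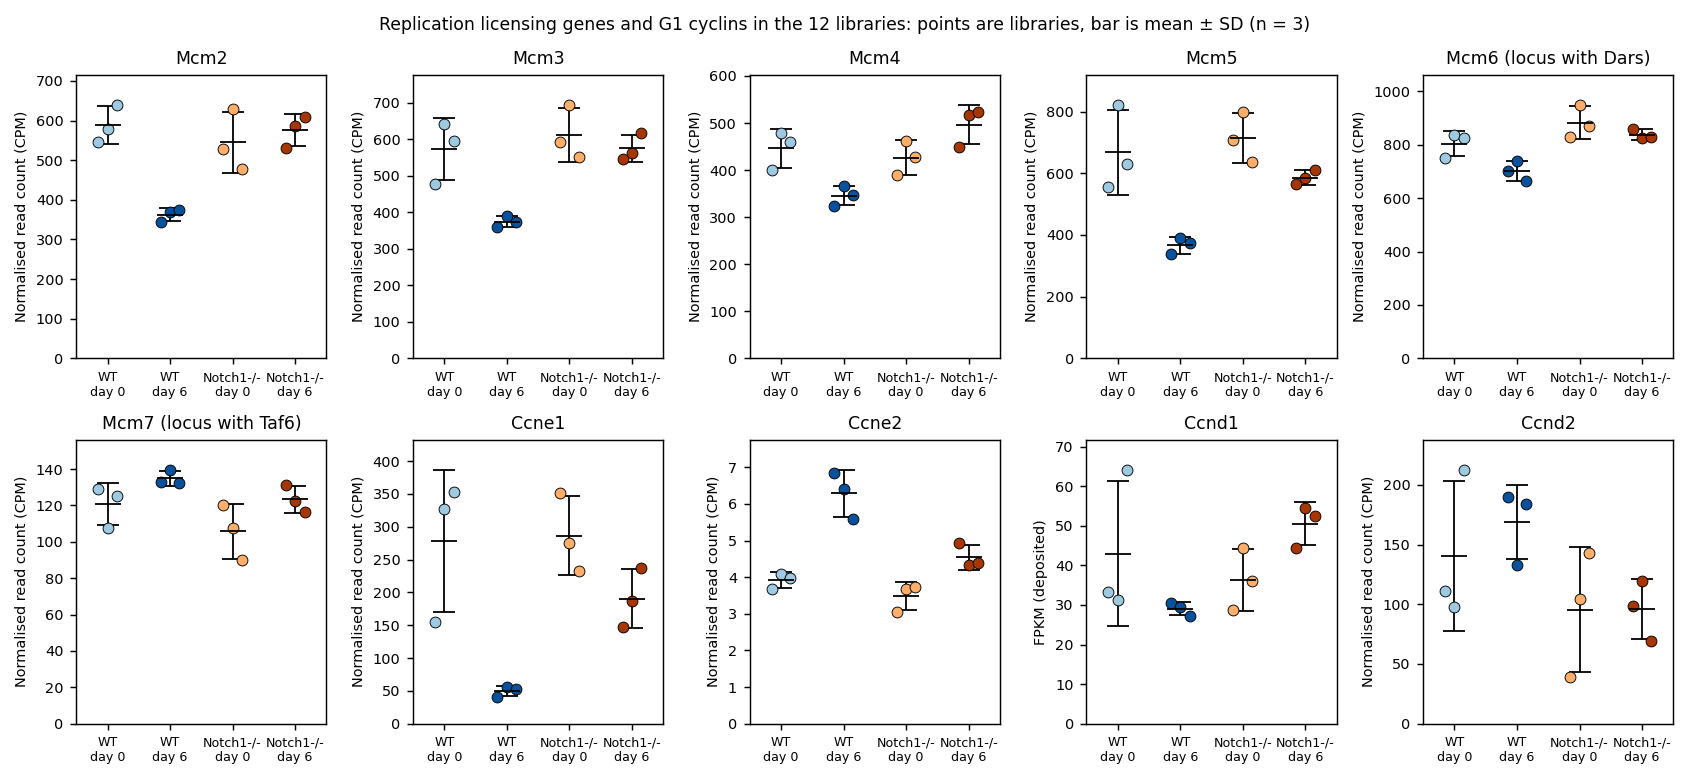
Level of each of the 10 members in the 12 libraries, as normalised read counts (CPM) or, for Ccnd1, deposited FPKM, with the mean and SD of each group of 3. The 3 wild-type day 6 libraries sit below all others for Mcm2, Mcm3, Mcm4, Mcm5 and Ccne1, and above all others for Ccne2.

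Mcm2, the subunit that also binds histones at the fork (mm9 chr6:88833468-88848774, minus strand), stood at 547, 580 and 639 CPM in wild-type cells at day 0, then 343, 370 and 375 CPM at day 6. The Notch1-/- values were 529, 629 and 478 CPM at day 0, then 530, 587 and 608 CPM at day 6. All wild-type embryoid body libraries lay below all others, and the other 3 groups overlapped. The log2 change over differentiation was −0.70 (SE 0.12, edgeR adjusted p = 0.000771) in wild-type cells and 0.08 (SE 0.12, adjusted p = 0.664) in Notch1-/- cells. At day 6 the Notch1-/- libraries were 1.59-fold higher (log2 0.67, edgeR adjusted p = 0.00186).

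Mcm3 (mm9 chr1:20793095-20810604, minus strand), the subunit that contacts the loading factors at the origin, gave 479, 642 and 596 CPM in wild-type cells at day 0, then 360, 390 and 373 CPM at day 6. Its Notch1-/- values were 591, 694 and 552 CPM at day 0, then 547, 561 and 617 CPM at day 6. Again the wild-type day 6 libraries stood alone at the bottom. The log2 change was −0.61 (SE 0.13, edgeR adjusted p = 0.00263) in wild-type and −0.09 (adjusted p = 0.626) in Notch1-/- cells, and at day 6 the genotypes differed 1.54-fold (edgeR adjusted p = 0.00417).

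Mcm5 (mm9 chr8:77633318-77654411, plus strand), which forms with Mcm2 the gate where the ring opens for DNA, had the largest wild-type fall of the Mcm genes measured on a locus of their own. Its libraries read 554, 821 and 629 CPM at day 0, then 337, 389 and 372 CPM at day 6 in wild-type cells, a log2 change of −0.87 (SE 0.15, edgeR adjusted p = 0.000557). Notch1-/- libraries held 708, 800 and 638 CPM, followed by 564, 585 and 610 CPM. These groups did not overlap either, but the log2 change of −0.29 (SE 0.15) did not pass the test (edgeR adjusted p = 0.144). At day 6 Mcm5 was 1.60-fold higher in Notch1-/- libraries (edgeR adjusted p = 0.00448).

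Mcm4, a subunit of the catalytic core of the helicase (mm9 chr16:15620659-15639600, minus strand), moved least of these 4. Wild-type libraries gave 400, 479 and 461 CPM at day 0, then 325, 366 and 347 CPM at day 6, and Notch1-/- libraries 389, 462 and 428 CPM and then 448, 518 and 524 CPM. Its wild-type change of −0.37 on the log2 scale (SE 0.12, edgeR adjusted p = 0.0240) passed the test, but DESeq2 did not call it (−0.31, adjusted p = 0.0957) and neither did edgeR without any 1 of 5 wild-type libraries (day 0 replicates 2 and 3, and each at day 6; adjusted p up to 0.117). The change in Notch1-/- cells was 0.22 (edgeR adjusted p = 0.169) by counts and 0.27 by FPKM (limma adjusted p = 0.0256). At day 6 the genotypes differed 1.44-fold (log2 0.52, SE 0.12, edgeR adjusted p = 0.00616).

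Summed over Mcm2, Mcm3, Mcm4 and Mcm5, wild-type cells held 2276 ± 274.5 CPM (SD, n = 3) at day 0 and 1449 ± 76.2 CPM at day 6, and Notch1-/- cells 2299.6 ± 255 CPM and 2233 ± 136 CPM. The sums of the wild-type day 6 libraries (1365 to 1514 CPM) did not overlap those of any other group (1980 to 2585 CPM). The day 0 groups differed by less than the spread between replicates. For these 4 genes the 95% intervals of the day 0 difference between genotypes, on the log2 scale, ran from −0.38 to 0.16 for Mcm2, from −0.19 to 0.38 for Mcm3, from −0.32 to 0.19 for Mcm4 and from −0.22 to 0.41 for Mcm5, so differences of that size at day 0 could not be told from none.

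The values for Mcm6 and Mcm7 are less specific. The Mcm6 locus (mm9 chr1:130228160-130315239, minus strand) also contains transcripts of Dars, the aspartyl-tRNA synthetase gene beside it, and its values are those of both genes together. They were 749, 835 and 827 CPM at day 0, then 701, 738 and 666 CPM at day 6 in wild-type cells, and 828, 949 and 870 CPM and then 860, 824 and 830 CPM in Notch1-/- cells. The wild-type day 6 libraries again lay lowest, but the wild-type change of −0.20 (edgeR adjusted p = 0.144) and the day 6 genotype difference of 0.26 (SE 0.10, edgeR adjusted p = 0.0821) did not pass the test. Without replicate 1 of wild-type day 0 that last difference was called (0.26, adjusted p = 0.0433).

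The Mcm7 locus (mm9 chr5:138602034-138628632, minus strand) includes Taf6, a subunit of the general transcription factor TFIID, and shares 44.99% of its exon length with another locus, so that some of its reads may be missing from the counts. It read 129, 108 and 125 CPM at day 0, then 133, 139 and 132 CPM at day 6 in wild-type cells, and 120, 107 and 89.9 CPM and then 131, 122 and 116 CPM in Notch1-/- cells. No comparison passed edgeR's test, with log2 differences from −0.19 to 0.22 and adjusted p from 0.196 to 0.870. The deposited FPKM of this locus is listed at 0 in replicate 2 of both day 6 groups, so FPKM gives no second reading of it.

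Cyclin E1, encoded by Ccne1 (mm9 chr7:38883003-38892509, minus strand), drives Cdk2 at the entry into S phase, and it changed most of all members. Wild-type libraries held 154, 327 and 353 CPM at day 0, then 40.7, 55.5 and 52.7 CPM at day 6, where every library was below every day 0 library. In Notch1-/- cells 351, 275 and 233 CPM at day 0 were followed by 148, 186 and 237 CPM at day 6, and these groups overlapped. The wild-type fall was 5.60-fold (log2 −2.49, SE 0.29, edgeR adjusted p = 4.49e-05). The Notch1-/- change of −0.59 (SE 0.28, edgeR adjusted p = 0.116) did not pass, but it was called without replicate 1 of wild-type day 0 (−0.59, adjusted p = 0.0326), the library at 154 CPM.

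At day 6, Ccne1 was 3.84-fold higher in Notch1-/- than in wild-type embryoid bodies (log2 1.94, SE 0.29, edgeR adjusted p = 0.000405), with all 3 libraries above all 3. At day 0 the log2 difference was 0.04 with a 95% interval from −0.56 to 0.64, wide because of the wild-type spread of 278 ± 108 CPM (SD, n = 3), against 286 ± 59.9 CPM in Notch1-/- cells. Leaving out single day 0 libraries turned its sign (from −0.25 to 0.25), so no direction is given for day 0. Per 1000 summed CPM of Mcm2 to Mcm5, Ccne1 stood at 77.9, 130 and 152 CPM in wild-type cells before differentiation and at 29.8, 36.7 and 35.9 CPM after it. With Notch1-/- it stood at 158, 107 and 111 CPM before and at 70.6, 82.8 and 101 CPM after. Ccne1 thus fell further than the Mcm genes in wild-type cells, and the ratio was also less at day 6 in Notch1-/- cells, without overlap in either genotype.

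Cyclin E2, encoded by Ccne2 (mm9 chr4:11118043-11141104, plus strand), is the second E-type cyclin. Its locus shares 28.68% of its exon length with another locus and held only 307 to 827 counts per library, so its CPM may understate it, and by FPKM, per length, it stood below Ccne1 in each group, at 5.85 against 94.6 FPKM in wild-type cells at day 0 and at 10.2 against 16.9 FPKM at day 6. Ccne2 went the other way from Ccne1: 3.68, 4.10 and 3.98 CPM at day 0, then 6.85, 6.42 and 5.60 CPM at day 6 in wild-type cells, a rise of 0.68 on the log2 scale (SE 0.19, edgeR adjusted p = 0.0132). FPKM gave 0.71 (limma adjusted p = 0.00784). Notch1-/- libraries held 3.04, 3.68 and 3.74 CPM and then 4.94, 4.32 and 4.38 CPM, all higher at day 6, but the change of 0.38 did not pass (edgeR adjusted p = 0.143). Genotypes at day 6 did not overlap by CPM (log2 −0.47, edgeR adjusted p = 0.0907; DESeq2 −0.51, adjusted p = 0.00918), but did by FPKM (−0.19, limma adjusted p = 0.440). The wild-type rise was not called without replicate 1 of wild-type day 6 (0.63, edgeR adjusted p = 0.0616) or under upper quartile scaling (0.52, adjusted p = 0.0504).

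**Figure D3:**
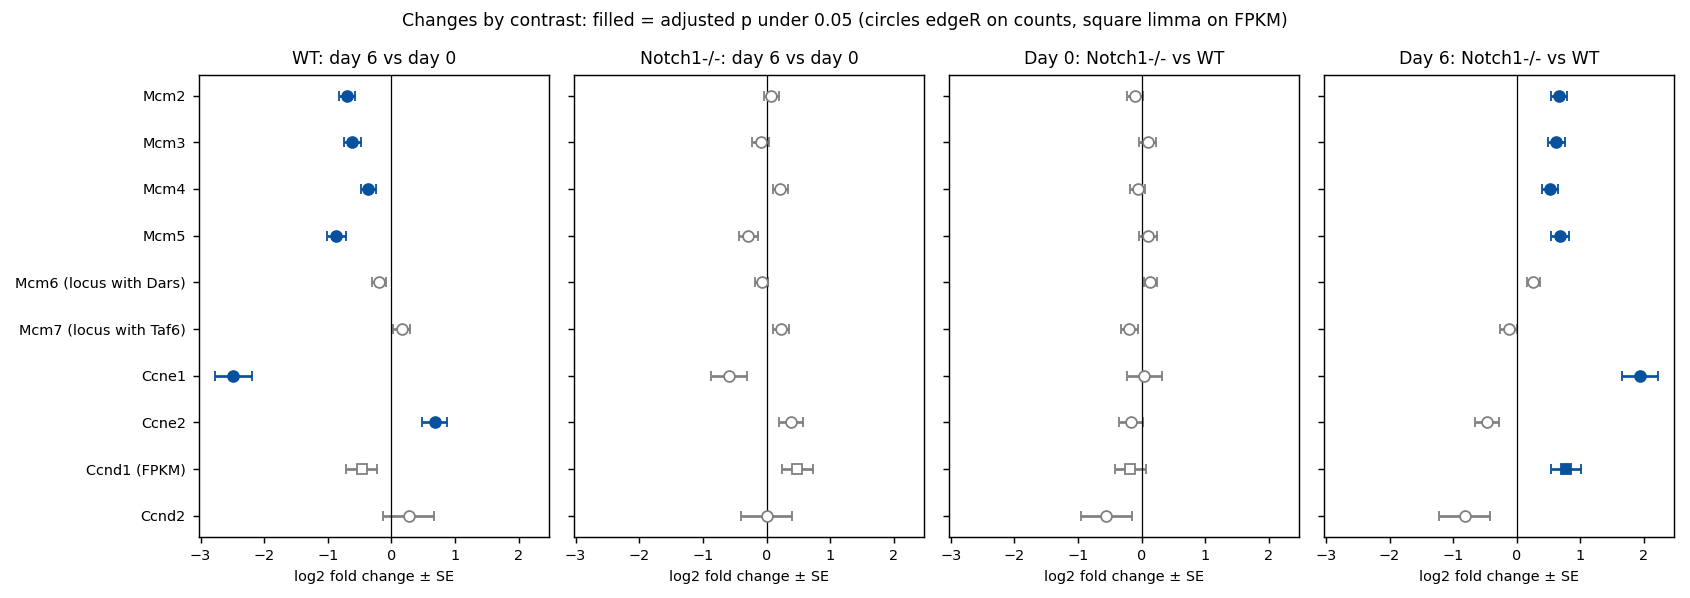
Log2 fold change with its standard error for each member in 4 comparisons, as circles for edgeR on counts and squares for limma on FPKM (Ccnd1), filled where the adjusted p was under 0.05. Filled points to the left in wild-type differentiation (Mcm2, Mcm3, Mcm4, Mcm5, Ccne1) stand to the right, also filled, in the day 6 genotype comparison together with Ccnd1, and no point is filled in the other 2 panels.

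Cyclin D1, encoded by Ccnd1 (mm9 chr7:152115836-152137836, minus strand), activates Cdk4 and Cdk6 in response to growth signals. Its exons lie wholly within an overlapping opposite-strand locus, its deposited counts are 0 throughout, and its values are therefore FPKM, tested by limma on log2(FPKM + 1). They were 33.3, 31.3 and 64.0 FPKM in wild-type cells at day 0, then 30.4, 29.6 and 27.3 FPKM at day 6, and 28.7, 44.4 and 35.9 FPKM at day 0, then 44.5, 54.6 and 52.6 FPKM at day 6 in Notch1-/- cells. Without strand information, reads of Ccnd1 and of the opposite gene cannot be told apart. At day 6 Ccnd1 was 1.71-fold higher in Notch1-/- libraries, with no overlap (log2 0.77, SE 0.24, limma adjusted p = 0.0328, where 15.7% of 13371 loci were called higher). This call was lost with no FPKM filter (adjusted p = 0.0579) and without any 1 of 5 day 6 libraries (all 3 wild-type and Notch1-/- replicates 2 and 3; adjusted p from 0.0789 to 0.0981). Its change over differentiation was −0.47 in wild-type (limma adjusted p = 0.140) and 0.48 in Notch1-/- cells (adjusted p = 0.147). Without replicate 3 of wild-type day 0, the library at 64.0 FPKM, the wild-type change was −0.15 (limma adjusted p = 0.502) and the Notch1-/- change was called (0.48, adjusted p = 0.0293).

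Cyclin D2, encoded by Ccnd2 (mm9 chr6:127075053-127101263, minus strand), gave 111, 97.8 and 212 CPM in wild-type cells at day 0, then 190, 133 and 184 CPM at day 6. Notch1-/- libraries gave 39.0, 105 and 143 CPM at day 0, then 98.4, 119 and 69.5 CPM at day 6. Its day 0 values varied most of all members, with a coefficient of variation of 44.7% in wild-type and 55.1% in Notch1-/- cells, against 3.98% to 20.6% for Mcm2, Mcm3, Mcm4 and Mcm5 in all groups. No comparison passed edgeR's test: the day 6 genotype difference was −0.82 (SE 0.40, adjusted p = 0.149), although the groups did not overlap. That difference was called without replicate 1 of Notch1-/- day 0 (−0.83, edgeR adjusted p = 0.0430), and in a fit of only those 6 libraries (−0.81, adjusted p = 0.0119).

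Ccnd2, and less regularly Ccnd1, differed between day 0 libraries alongside fibroblast RNA. The mean log2 CPM of the 17 fibroblast markers reached 5.55, 4.74 and 6.68 in undifferentiated wild-type and 4.28, 5.29 and 5.97 in undifferentiated Notch1-/- cells. Ccnd2 took the same order in each genotype, at 13.5, 9.91 and 22.9 FPKM and at 3.93, 10.02 and 13.9 FPKM. Ccnd1 was highest in the wild-type library with the most fibroblast RNA (64.0 FPKM), but in Notch1-/- cells the highest Ccnd1 (44.4 FPKM) was in the library with the middle marker level and not in that with the most (35.9 FPKM). Among embryoid bodies the wild-type libraries had the higher fibroblast marker level (3.05, 3.11 and 3.36, against 1.14, 1.08 and 1.52 in Notch1-/- libraries) and the higher Ccnd2, but the lower Ccnd1. The part of fibroblast RNA in the cyclin D values was not tested. The ratio of Ccnd1 to Ccnd2, both in FPKM, was 1.43, 2.08 and 1.34 in wild-type and 4.05, 4.17 and 6.97 in Notch1-/- embryoid bodies, and 2.46, 3.16 and 2.80 against 7.30, 4.43 and 2.59 at day 0.

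**Figure D4:**
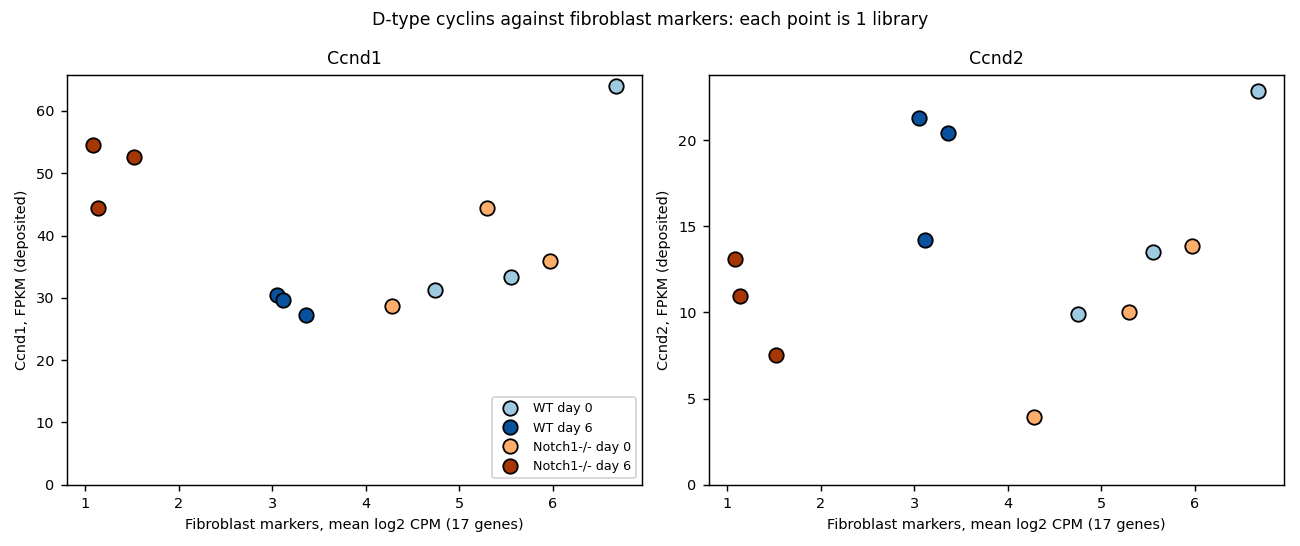
Deposited FPKM of Ccnd1 (left) and Ccnd2 (right) against the mean log2 CPM of 17 fibroblast markers, with 1 point per library coloured by group. At day 0 Ccnd2 is higher where the marker level is higher in both genotypes, and at day 6 the 3 Notch1-/- libraries (1.08 to 1.52) lie left of the 3 wild-type ones (3.05 to 3.36).

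Whether the genotypes differed in their change over differentiation was tested as the difference of the differences, Notch1-/- change minus wild-type change. It was positive and called for 3 of the 9 members with counts, Mcm2 (0.78, SE 0.18, edgeR adjusted p = 0.0139), Mcm4 (0.59, SE 0.17, adjusted p = 0.0405) and Ccne1 (1.90, SE 0.40, adjusted p = 0.00931), against 6.36% of loci called in that direction (5.11% of those with at least 100 CPM). Those 1527 loci fell to as few as 747 when 1 library was left out (replicate 2 of wild-type day 6), and by over 1.5 times also without replicate 1 of that group or replicate 3 of Notch1-/- day 6. By edgeR 0 were called negative, against 4.92% of loci (1181, and 687 without replicate 2 and over 1.5 times fewer also without replicate 1 of wild-type day 6), with 0 at an unadjusted p under 0.05 and 0 by DESeq2. Mcm3 (0.52, edgeR adjusted p = 0.0913) and Mcm5 (0.58, adjusted p = 0.0907) did not pass by counts. By FPKM, Mcm2, Mcm3, Mcm4, Mcm5 and Ccne1 were all called (limma adjusted p from 0.00464 to 0.0172), against 7.20% of loci. The difference for Ccnd1 was 0.95 (SE 0.34, limma adjusted p = 0.0931), called without replicate 2 of wild-type day 0 (1.13, adjusted p = 0.0406).

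The calls by counts in that comparison rest on few libraries. Mcm2 was no longer called without replicate 1 of wild-type day 6 (0.74, edgeR adjusted p = 0.0504). Mcm4 was not called in 10 of the 12 fits that left out 1 library (from 0.51 to 0.66, adjusted p from 0.0203 to 0.122), nor with DESeq2 (0.49, adjusted p = 0.101). Its edgeR call was also lost with DESeq2's size factors (adjusted p = 0.105), upper quartile scaling (adjusted p = 0.0574) and no count filter (adjusted p = 0.0683). Without replicate 1 of wild-type day 0, Mcm3 (0.64, edgeR adjusted p = 0.0268) and Mcm5 (0.70, adjusted p = 0.0335) were called as well, which made 5 members, and without replicate 1 of wild-type day 6 only Ccne1 was, which made 1. Ccne1 was called in every one of the 12 (from 1.69 to 2.19, adjusted p up to 0.0319).

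Levels between members can be compared per length, by FPKM, for those on a locus of their own. Ccnd1 is listed with them, but its FPKM may include reads of the opposite gene, so its place is less certain. In wild-type cells at day 0 Mcm3 stood highest at 145 ± 10.4 FPKM (SD, n = 3), then Mcm5 at 125 ± 14.5, Mcm2 at 115 ± 11.6, Ccne1 at 94.6 ± 32.5, Mcm4 at 80.0 ± 2.77, Ccnd1 at 42.9 ± 18.3, Ccnd2 at 15.4 ± 6.69 and Ccne2 at 5.85 ± 0.826 FPKM. Neighbours from Mcm3 to Mcm4 in that order differed by less than the sum of their SDs. In wild-type cells at day 6 the order was Mcm3 (95.4), Mcm2 (69.5), Mcm5 (68.1), Mcm4 (61.8), Ccnd1 (29.1), Ccnd2 (18.6), Ccne1 (16.9) and Ccne2 (10.2 FPKM), so Ccne1 moved from the level of the Mcm genes to that of Ccnd2. In Notch1-/- cells at day 6 Ccne1 (62.5 ± 15.3 FPKM; libraries at 48.5, 60.0 and 78.9) overlapped with Ccnd1 (50.6 ± 5.35; 44.5, 54.6 and 52.6) and lay above Ccnd2 (10.5 ± 2.80).

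Pearson's r of log2 CPM across the 12 libraries was 0.97 between Mcm3 and Mcm5, 0.93 between Mcm2 and Mcm3, 0.88 between Mcm2 and Mcm4, 0.75 between Mcm4 and either Mcm5 or Ccne1, and 0.91 to 0.96 between Ccne1 and Mcm2, Mcm3 or Mcm5, but −0.90 between Ccne1 and Ccne2 and from −0.53 to −0.30 between Ccnd2 and the 4 Mcm genes. These are descriptions over 12 libraries in 4 groups, and the wild-type day 6 group weighs heavily in them. Of 7111 loci with a symbol and a mean log2 CPM of at least 2, those closest to the mean of Mcm2 to Mcm5 were Mir124a-1hg, Mdn1, Arl6, Pfas and Zscan10 (r from 0.97 to 0.98). Mdn1, a ribosome assembly factor, for example went from 777 ± 172 to 334 ± 8.04 CPM in wild-type and from 937 ± 307 to 879 ± 170 CPM in Notch1-/- cells (mean ± SD, n = 3). Closest to Ccnd2 were Phldb2, Mdfic, Ghr, Cflar and Vim (r from 0.87 to 0.88); Vim encodes vimentin, the intermediate filament of fibroblasts and other mesenchymal cells.

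The other genes of DNA replication and the cell cycle were read in 8 lists of 99 genes, of which 58 had a locus of their own with counts and under 50% shared exons. Of these 58, 18 were called lower and 7 higher over wild-type differentiation (median log2 change −0.28, against −0.12 for all loci), where 24.7% and 18.4% of all loci were. Of the same 58, 6 were lower and 16 higher in Notch1-/- cells (0.15, against −0.02), where 18.7% and 17.2% of all loci were. At day 6, 20 were higher and 4 lower in Notch1-/- embryoid bodies (median 0.33, against 0.01), where 13.7% and 14.4% of all loci were. At day 0, 1 was higher and 5 lower (−0.07, against −0.08), beside 3.71% and 5.86% of all loci. Of the other listed genes, 20 lay on loci merged with a second gene and are not given, 1 (Cdkn2b) had no locus, and 20 on loci that share at least 50% of their exons were read by FPKM: limma called 1 of these higher and 4 lower in wild-type differentiation (23.6% and 20.8% of all loci tested by FPKM). It called 3 and 2 in Notch1-/- differentiation (21.1% higher, and 1873 of the 13371 loci lower), and 3 and 0 at day 6 in Notch1-/- embryoid bodies (15.7% and 16.4%). At day 0 it called 2 higher in Notch1-/- cells (E2f5 and Aurka) and 0 lower, beside 390 and 439 of the 13371 loci. In the difference of the differences it called 0 higher, beside 7.20% of loci, and 1 lower (E2f5, −0.58, limma adjusted p = 0.0279).

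**Figure D5:**
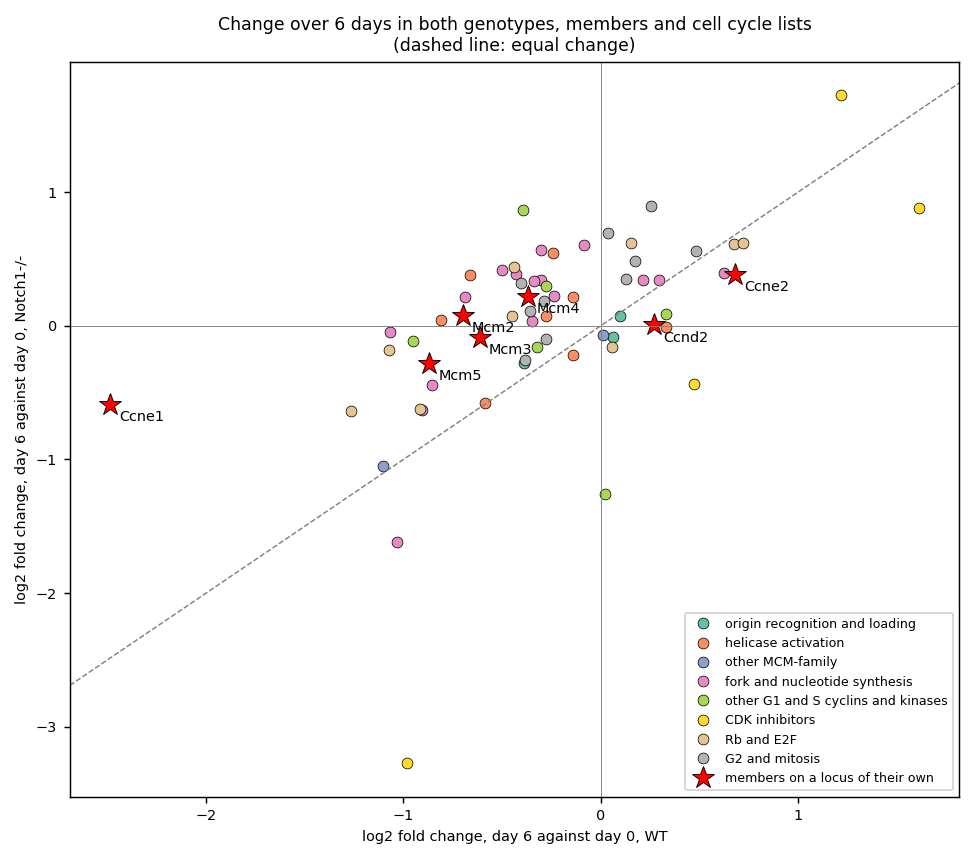
Log2 change over 6 days in wild-type cells (x axis) against that in Notch1-/- cells (y axis), edgeR on counts, for 7 members on a locus of their own (stars) and 58 genes of 8 cell cycle lists (circles, coloured by list); the dashed line marks equal change. Mcm2, Mcm3, Mcm4, Mcm5 and Ccne1 lie above the line with most fork and helicase genes, Ccne2 and Ccnd2 lie below it, and Cdkn2a is the lowest point.

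Among the factors that load the Mcm ring (3 of 10 listed genes measured by counts), Cdt1, the loader itself, fell in wild-type cells, from 210 ± 23.3 to 160 ± 3.40 CPM (log2 −0.39, edgeR adjusted p = 0.0259), and Orc3 and Orc5, subunits of the origin recognition complex, were not called in any of the 5 comparisons. Orc2, another subunit, lies on a locus with 92.52% of its exons shared and was read by FPKM. It was called lower over differentiation in wild-type (−0.70, limma adjusted p = 0.00395) and Notch1-/- cells (−0.55, adjusted p = 0.0188). At day 6 Orc2 was called higher in Notch1-/- embryoid bodies (0.54, limma adjusted p = 0.0235). By FPKM, Orc4 and Orc6 were not called. The factors that turn the loaded ring into a helicase (8 of 12 measured) were called higher in Notch1-/- embryoid bodies for 4 and lower for 0, beside 13.7% and 14.4% of all loci. Mcm10, which activates the assembled helicase, held 308 ± 23.9 and then 176 ± 9.0 CPM in wild-type and 277 ± 17.1 and then 285 ± 17.04 CPM in Notch1-/- cells, a fall of 0.81 on the log2 scale in wild-type cells (edgeR adjusted p = 0.000113). Gins3, of the GINS complex, fell in wild-type cells (−0.66, edgeR adjusted p = 0.00181) and rose in Notch1-/- cells (0.38, adjusted p = 0.0408). Dbf4, the partner of the Cdc7 kinase that phosphorylates the Mcm ring, fell in both (−0.59 and −0.58, edgeR adjusted p = 0.00885 and 0.0115) from a higher start in Notch1-/- cells (0.64 at day 0, adjusted p = 0.0227). Of the relatives Mcm9 and Mcmdc2 (2 of 3 measured), Mcmdc2, a meiosis gene, fell in both genotypes, with group means of 0.930 to 2.64 CPM (−1.10 and −1.05, edgeR adjusted p = 0.00819 and 0.0129).

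Genes of the fork and of nucleotide supply (16 of 28 measured) were called lower for 6 and higher for 1 over wild-type differentiation (median −0.34). The shares of all loci there were 24.7% and 18.4% (median −0.12). In Notch1-/- cells they were called lower for 2 and higher for 3 (0.34), beside 18.7% and 17.2% of all loci (−0.02). In Notch1-/- against wild-type embryoid bodies 8 were called higher and 1 lower (0.42), beside 13.7% and 14.4% of all loci (0.01). Rpa1, the large subunit of the single-strand binding protein, held 327 ± 46.8 CPM and then 156 ± 12.3 CPM in wild-type cells, and 255 ± 19.0 CPM and then 247 ± 20.5 CPM in Notch1-/- cells (mean ± SD, n = 3). Its wild-type change was −1.07 (SE 0.13, edgeR adjusted p = 5.86e-05). Rpa2 fell by 0.86 on the log2 scale (edgeR adjusted p = 0.00189) and Pole, the leading-strand polymerase, fell by 0.69 (adjusted p = 0.00293) in wild-type cells, and both were higher in Notch1-/- embryoid bodies (0.84 and 0.55, adjusted p = 0.00355 and 0.0168). Pold2, the exception lower in Notch1-/- embryoid bodies, lies on a locus with 39.95% of its exons shared and held 1.06 to 7.83 CPM.

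Of the other G1 and S cyclins and kinases (6 of 10 measured), Cdk6, the partner of D-type cyclins, held 84.2 ± 19.3 and then 64.1 ± 1.99 CPM in wild-type and 46.3 ± 1.90 and then 84.6 ± 14.9 CPM in Notch1-/- cells, a rise of 0.87 on the log2 scale in the latter (edgeR adjusted p = 0.00242). The third D-type cyclin, Ccnd3, fell there by 1.26 (edgeR adjusted p = 0.000447) and was lower than in wild-type embryoid bodies (−0.77, adjusted p = 0.0110). Cdc25a, the phosphatase that activates Cdk2, was higher in Notch1-/- embryoid bodies (0.52, edgeR adjusted p = 0.00611). CDK inhibitors (4 of 7 measured) were called lower there for 2 and higher for 0, beside 14.4% and 13.7% of all loci. Cdkn1b (p27), which binds cyclin E with Cdk2, rose in both genotypes, from 71.5 ± 20.5 to 166 ± 11.3 CPM (1.22, edgeR adjusted p = 0.00463) in wild-type and from 36.2 ± 16.4 to 120 ± 17.05 CPM (1.73, adjusted p = 0.000764) in Notch1-/- cells. Cdkn2a, whose locus encodes p16 and p19, fell in both, to 13.7 ± 2.87 CPM in wild-type and to 3.70 ± 0.960 CPM in Notch1-/- embryoid bodies (−0.98 and −3.27, edgeR adjusted p = 0.00707 and 8.46e-06). Fibroblast marker RNA was also lowest in the Notch1-/- embryoid bodies, and its part in the Cdkn2a values was not tested.

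The Rb and E2F genes (9 of 13 measured) were called in neither direction between genotypes at day 6 by edgeR's adjusted p. In wild-type cells 3 were called lower and 2 higher, beside 24.7% and 18.4% of all loci. E2f2 was among the former (−1.26, edgeR adjusted p = 0.00636), and E2f3, another activator of the family, was higher (0.67, adjusted p = 0.00142). In Notch1-/- cells E2f3 (0.61, adjusted p = 0.00339), E2f6 and E2f7 were higher and 0 lower, beside 17.2% and 18.7% of all loci. Genes of G2 and mitosis (10 of 16 measured) were called higher for 6 and lower for 0 in Notch1-/- embryoid bodies (median 0.41), beside 13.7% and 14.4% of all loci. Mki67, the proliferation marker Ki-67, held 496 ± 84.1 and then 593 ± 54.1 CPM in wild-type and 530 ± 99.6 and then 986 ± 75.7 CPM in Notch1-/- cells, where the rise was 0.90 (edgeR adjusted p = 0.00118). Cenpf, a kinetochore protein of G2, was 1.11 higher on the log2 scale in Notch1-/- embryoid bodies (edgeR adjusted p = 0.000572). Kif11, the spindle motor, was 0.56 higher there (adjusted p = 0.00135) and fell by 0.36 in wild-type cells (adjusted p = 0.0113). Over wild-type differentiation 3 of the 10 were called lower and 1 higher, beside 24.7% and 18.4% of all loci, with a median of −0.12, as for all loci. Under upper quartile scaling 5 were lower and 0 higher.

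Scaling bears on these time courses. Upper quartile scaling moved the median change of all loci from −0.12 to −0.29 in wild-type and from −0.02 to −0.18 in Notch1-/- cells, and the share of calls that were higher from 42.7% to 33.0% and from 47.8% to 37.1%. Under it the falls of Mcm2, Mcm3, Mcm4, Mcm5 and Ccne1 in wild-type cells stayed called, Mcm6 was called as well (−0.36, edgeR adjusted p = 0.0208), and Mcm5 was called lower in Notch1-/- cells (−0.44, adjusted p = 0.0479). List counts in wild-type differentiation moved too: fork genes from 6 lower and 1 higher to 11 and 0, helicase activation factors from 3 and 1 to 5 and 0, and genes called lower among other G1 and S cyclins and kinases from 0 to 3. In Notch1-/- differentiation the G2 and mitosis genes called higher went from 5 to 3, and helicase activation factors and CDK inhibitors each from 2 to 1. Genes called lower there went from 0 to 1 in the lists of ring loading, of Rb and E2F, and of G2 and mitosis. At day 0 genes called lower went from 1 to 0 in the helicase, fork and CDK inhibitor lists. At day 6 the Rb and E2F genes called higher in Notch1-/- embryoid bodies went from 0 to 1. With DESeq2's size factors in edgeR the wild-type fall of Mcm4 was not called (−0.32, edgeR adjusted p = 0.0643). Nor was it called in an edgeR fit of only the wild-type libraries (−0.37, adjusted p = 0.0524).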

How the data were processed

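Poly(A) RNA of 12 libraries was sequenced, 3 for each of 4 groups. Per the submitters' processing notes, the tools were HTSeq 0.5.4p3, DESeq, Cufflinks 2.1.1 and TopHat2 2.0.8, and the genome build mm9. The authors deposited whole-number read counts per merged locus, and FPKM per locus scaled by Cufflinks. The strand setting is not given in the sources used here, and reads in overlapping loci can be lost from counts.

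In R 4.3.3, the deposited counts were tested by edgeR 4.0.16 after TMM scaling, its filter on low counts, all 12 libraries in 1 quasi-likelihood fit and Benjamini-Hochberg adjustment over 23991 loci. FPKM were tested by limma 3.58.1 on log2(FPKM + 1), for 13371 loci at 1 FPKM or more in at least 3 libraries. The 5 contrasts are time in each genotype, genotype at each time, and how far the change over time differed. Between the genotypes at day 0 same-numbered libraries deviated together (r of 0.46, 0.36 and 0.27 over 10214 loci). This pairing comes from the data alone, and the main fit did not model it. Alternatives were DESeq2 1.42.0, other scalings, filters, pseudocounts and library sets, and, added after seeing the data, FPKM for every member. Loci were linked to gene symbols through exon and intron lengths: 17403 of 40039 loci were linked.

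All members are named in each contrast, and in each companion list up to 3 called genes with the smallest p per contrast. Of the listed genes read by FPKM, Orc2, E2f5 and Aurka are named as called. The result of 1 listed gene is not reported here, though list counts include it. Members and lists were chosen with earlier results of these data known. With totals of 100637179 to 134662426 counts, counting error is small beside the spread between replicates for abundant loci. For loci with few counts, such as Ccne2 with 307 to 827 per library, it may not be.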

Additional observations from a re-analysis of the deposited data

Results flagged for a closer look

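The change over differentiation differed between the genotypes, by the edgeR test of the difference of the differences (Notch1-/- change minus wild-type change, log2), for 3 members and for genes of the companion lists. The members were Mcm2 (0.78), Mcm4 (0.59) and Ccne1 (1.90), and the calls of Mcm2 and Mcm4 were lost in some of the alternatives given above. Of the 58 listed genes 11 were called higher and 2 lower, beside 6.36% and 4.92% of all loci, and up to 3 per list are named. Calls of single listed genes were not checked by leaving out libraries or with DESeq2. The 1527 loci called higher fell to as few as 747 when 1 library was left out. Among helicase activation factors the differences were 1.04 for Gins3, 0.85 for Mcm10 and 0.78 for Cdc7. Among fork genes they were 0.91 for Pole and 1.02 for Rpa1. Among G1 and S genes they were 1.26 for Cdk6, 0.58 for Cdc25a and −1.28 for Ccnd3. Cdkn2a differed by −2.29 and Bub1b, a spindle checkpoint kinase, by 0.72.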

How the results depend on the processing

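The log2 fold changes of the members with counts were compared across the alternatives, limma on FPKM among them. Of these, 823 kept their direction and side of the threshold, 16 became called, 25 lost the call and 27 turned sign. For Ccnd1 by FPKM 71, 2, 6 and 1 did. The cause was not tested for any of these. Upper quartile scaling left 0 members called higher in wild-type differentiation, called 1 lower in Notch1-/- differentiation, and turned Mcm7 in wild type (−0.0018), Mcm2 (−0.079) and Ccnd2 (−0.17) in Notch1-/- differentiation. DESeq2's size factors in edgeR turned Ccnd2 in Notch1-/- differentiation (−0.050) and the Mcm7 difference of the differences (−0.036), as did DESeq2 itself (−0.039 and −0.037). A fit of only the 2 groups gave −0.021 for Ccnd2 there and 2 members called lower at day 6 between genotypes, and DESeq2 gave 1. FPKM with limma called 1 member higher in Notch1-/- differentiation and 5 in the difference of the differences. It turned Mcm7 in wild-type (−2.38) and Notch1-/- differentiation (−1.98) and at day 6 (0.16), and at day 0 Mcm3 (−0.024), Mcm5 (−0.010), Ccne1 (−0.013) and Ccne2 (0.18). Without an FPKM filter Ccnd1 at day 6 was 0.77 and lost its call. Leaving out each library in turn, members called higher ran from 0 to 1 in wild-type differentiation and from 1 to 5 for the difference of the differences, and members called lower from 0 to 1 in Notch1-/- differentiation and from 0 to 1 at day 6. In Notch1-/- differentiation Mcm2 ran from −0.029 to 0.18, Ccnd2 from −0.38 to 0.39 and Ccnd1 from 0.33 to 0.63. At day 0 Mcm3 ran from −0.018 to 0.20, Mcm4 from −0.14 to 0.0049, Mcm5 from −0.021 to 0.28, Ccne1 from −0.25 to 0.25 and Ccnd1 from −0.36 to 0.14, and Ccnd1 at day 6 from 0.72 to 0.86. The Mcm7 difference of the differences ran from −0.064 to 0.14, that of Ccnd2 from −0.69 to 0.12 and that of Ccnd1 from 0.63 to 1.13. Of 18 same-numbered pairs of libraries, 13 had deviations correlated above 0.1 (lowest −0.11, highest 0.46), a pairing that comes from the data alone. The main fit did not model it in any of the 5 contrasts, that of the genotypes at day 0 included. A replicate block was run as an alternative. With a replicate block 44 of the 45 fold changes by counts kept their side of the threshold, and the Mcm5 difference of the differences was called (0.58, edgeR adjusted p = 0.0492).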
